A study of Mus musculus with 4 samples.

Results

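The genes described here are 48 ligands and receptors of the axon guidance families: semaphorins with their plexin and neuropilin receptors, Slits with their Robo receptors, netrins with their Unc5 receptors, and ephrins with their Eph receptors. They were taken by gene symbol from a list of guidance genes that also act between bone and tooth cells, a rule that uses no measured value, although the list was drawn up with earlier results of these data known. All 48 had a row in the deposited tables, which list 23107 genes, and 47 were tested; Slit1 fell under the filter on low values. RNA was sequenced from tdTomato-positive cells, labelled PTHrP+ dental follicle cells, that were sorted from enzymatically dissociated mandibular molars of mice at postnatal day 8, after tamoxifen at postnatal day 3. The dental follicle is the mesenchymal sheath around a developing tooth, and PTHrP is the parathyroid hormone-related protein.

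The cKO group consisted of 2 libraries labelled Ptch1(-/-), from conditional knockouts of Ptch1, and the cHet group of 2 libraries labelled Ptch1(+/-), from conditional heterozygotes. Both groups were targeted at Ptch1, in both copies or in 1, both received tamoxifen and both carried the reporter, so no untargeted control was compared. The promoter that drove recombination, the deleted part of Ptch1, the number of animals behind a library and any pooling are not given in the sources used here. Libraries are named cKO_0, cKO_1, cHet_0 and cHet_1 after the columns of the tables. No label ties a library to an animal of its own, so p-values measure only the spread between these samples, which may be technical.

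Guidance ligands steer growing axons, vessels and migrating cells by attraction or repulsion, through receptors that remodel the actin skeleton and adhesion. Class 3 semaphorins are secreted and bind neuropilins that pair with plexins, whereas most other semaphorins are membrane proteins that bind plexins directly. Slits repel through Robo receptors, and netrins act through Dcc, neogenin and Unc5 receptors. Ephrins and Eph receptors are both held on cells and signal in both directions on contact. In the skeleton, Sema3a, Sema4d and the pair of ephrin-B2 and EphB4 are known for signals between osteoblasts and osteoclasts, and in the tooth Sema3a is known for keeping nerve fibres out of the early mouse germ.

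Values are scaled counts, gene counts that the authors divided by a factor for each library, unless FPKM is named. FPKM is also scaled by the authors to transcript length and was used to compare genes with each other. In cKO_1 and cHet_1, FPKM per scaled count varied widely with transcript GC content, as given further below, which limits that comparison. Scaled totals lay between 69361760 and 71228342. Library cHet_1 stood apart: 9850 genes reached an FPKM of 1 there, against 11355 to 12360 in the other 3, and 34 genes were at 0 there with at least 100 in each of the other 3, against 0 to 3 such genes in those. The highest correlation between libraries was between groups, cKO_0 with cHet_0 (Pearson 0.893 across genes on the log2 scale), and cHet_0 correlated with cHet_1 at 0.791. Ptch1 was listed at 22420 and 23340 in cKO and at 12870 and 5438 in cHet, a gene-level value that does not show whether an exon was deleted. Hhip, a hedgehog antagonist and a common readout of the pathway, was listed at 175500 and 160500 in cKO and at 62360 and 60650 in cHet (log2 fold change 1.45, SE 0.24). In FPKM the groups of Hhip overlapped, at 273 and 84.1 in cKO and 100.7 and 25.5 in cHet. Gli1, another readout, was listed at 6388 and 6955 in cKO and at 4132 and 3350 in cHet (0.84, SE 0.34). Its groups did not overlap in FPKM either.

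Transcripts of the guidance families were broadly present in these libraries, which also held markers of other cell types, as given below. An FPKM of at least 1 was reached by 43 and 45 of the 48 genes in cKO_0 and cKO_1 and by 46 and 41 in cHet_0 and cHet_1, with 40 genes above it in all 4 libraries. The receptor gene Epha3 had the highest mean level, 155 FPKM. It alone made up 25% and 13.6% of the summed FPKM of the 48 genes in the cKO libraries and 17.1% and 9.2% in the cHet libraries. After Epha3 came the ephrin Efnb1 (68.6 FPKM), Slit3 (59.2), the receptors Ephb4 (47.7), Ephb6 (43.2), Ephb3 (42.0) and Plxnb2 (41.4), Sema3b (37.8), Efna1 (36.7), Nrp2 (34.6), Efna2 (31.1) and Ntn1 (29.8), all as means of 4 libraries. In the plot of FPKM by library the order of neighbours is loose: from Ephb4 to Ntn1 the library values of each gene overlap those of the next.

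**Figure D1:**
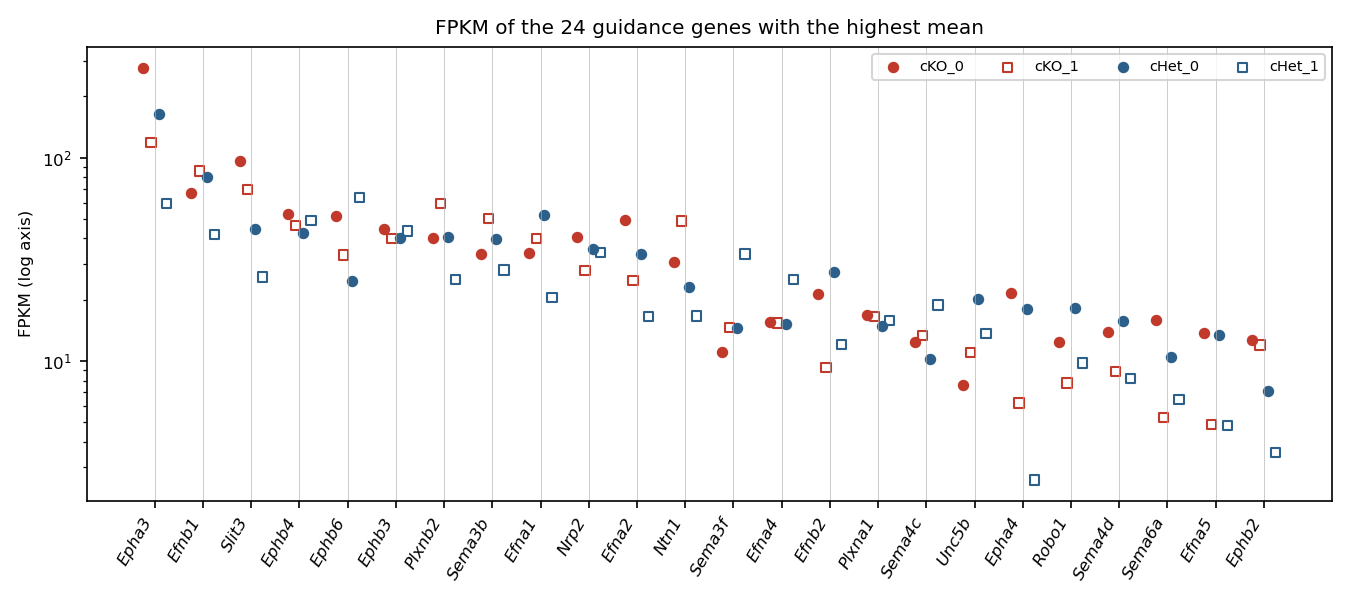
FPKM on a log axis for the 24 guidance genes with the highest mean FPKM, ordered by that mean, with 1 symbol for each library (cKO filled and open red, cHet filled and open blue). Epha3 stands highest in the mean at 155 FPKM, and its library values span 277 in cKO_0 to 59.4 in cHet_1.

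None of the 47 tested genes passed the test between cKO and cHet. The test was limma on log2(scaled count + 3), with p-values adjusted over all 14297 genes tested by the Benjamini-Hochberg method and a threshold of 0.05. It called 0 guidance genes higher and 0 lower, as it called 0 of all genes (0.0%), and the lowest adjusted p was 0.913, the value of each gene below whose unadjusted limma p is printed. An exact permutation test of 2 libraries against 2 cannot give a p under 0.333, so no such test was run. Log2 fold changes, always cKO minus cHet on that scale, were above 0 for 26 of the 47 genes (55.3%) and for 56.3% of all genes. Their median was 0.064, against 0.121 over all genes. The 2 medians lay close together, and 23 of the 47 genes lay between -0.5 and 0.5. The fold changes of low genes are understated on this scale. In bulk libraries, fewer cells of a type and less RNA per cell cannot be told apart.

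At an unadjusted limma p under 0.05 there were 7 genes (14.9% of the 47), 5 higher in cKO (Slit3, Epha3, Plxna3, Ntn1 and Ephb2) and 2 lower (Sema5a and Unc5c). Over all genes the share was 3.03%, 1.54% higher and 1.49% lower. The count depended on the setting: it was 1 or 2 in the fits to FPKM, 1 without limma's mean-variance trend, 3 without cKO_0, 5 without cKO_1, 16 without cHet_0 and 4 without cHet_1. These genes are mostly well expressed, so the shares were also taken above a mean scaled count of 1000, where they were 14.3% of 42 guidance genes and 3.99% of all genes. Both cKO libraries lay above or below both cHet libraries for 19 of the 47 genes (40.4%), 8 higher in cKO and 11 lower, where 32.2% of all genes did so, 18.0% higher and 14.2% lower. The separation held in scaled counts and in FPKM for 8 genes (17.0%), against 16.8% of all genes, 9.98% higher and 6.87% lower. Of these, Plxna1, Plxna3, Slit3, Ntn1 and Ephb2 were higher in cKO and Sema5a, Unc5b and Unc5c lower. The plot of all 48 genes by library shows these values, with a left tail that belongs mostly to cHet_1.

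**Figure D2:**
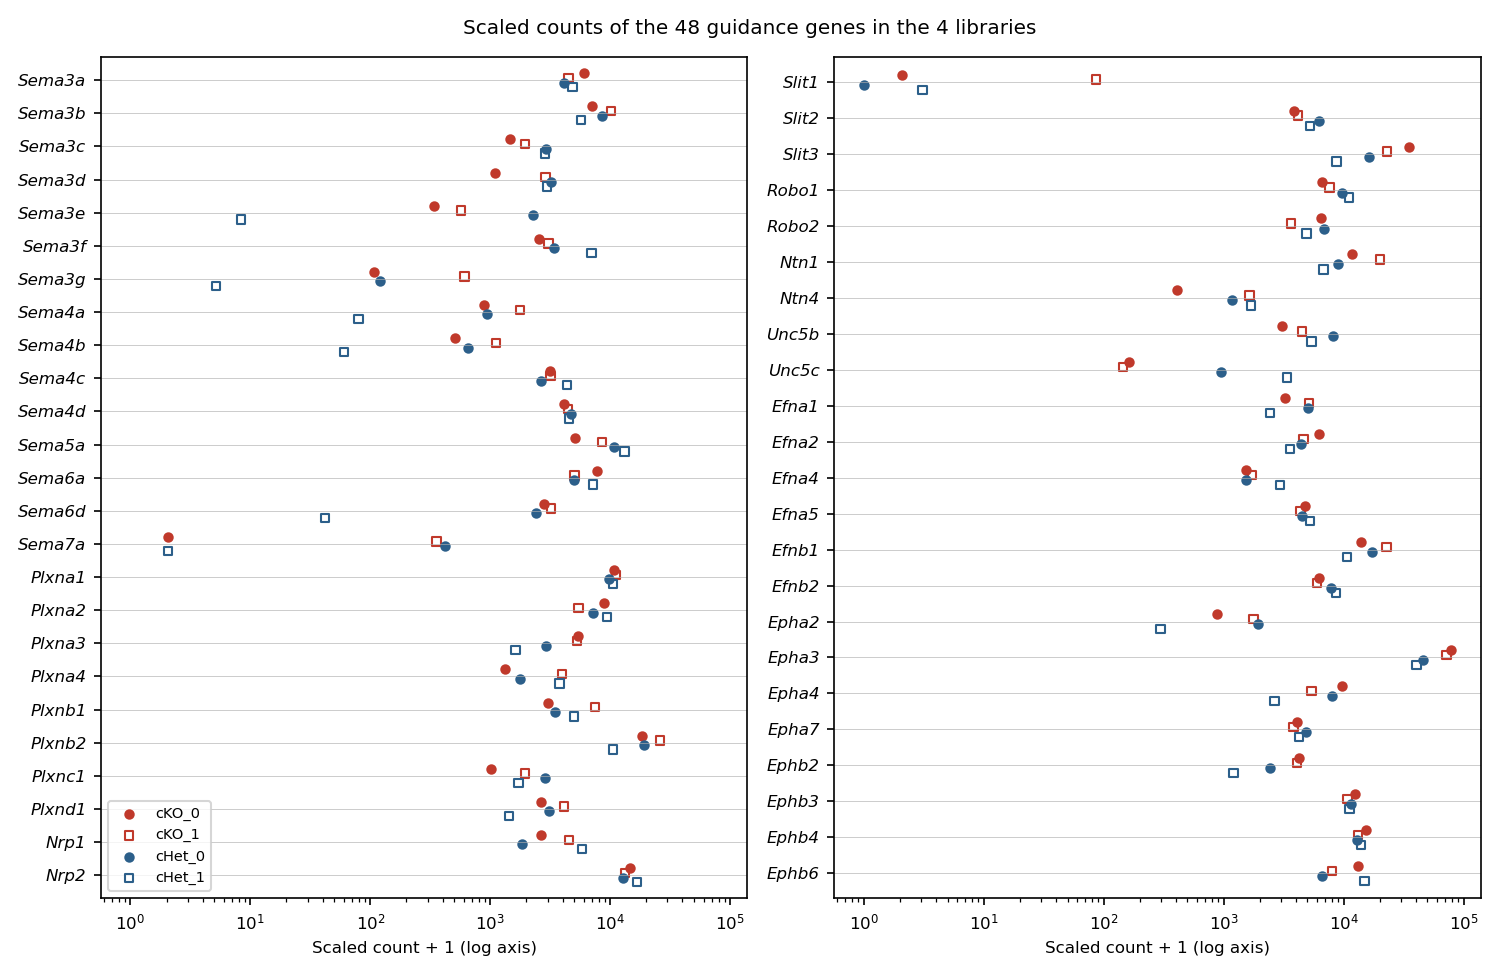
Scaled count + 1 on a log axis for each of the 48 guidance genes, with 1 symbol for each library (cKO filled and open red, cHet filled and open blue). For 38 of the 47 tested genes all 4 symbols lie at or above 1000, while Sema3e, Sema3g, Sema4a and Sema6d have the cHet_1 symbol far to the left of the other 3.

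Promoter sequences are shown for those of the 8 genes singled out below by the size of their difference whose window held at least 200 bases outside the gene's annotated exons, the 5 genes Sema6d, Plxna3, Ephb2, Epha3 and Sema5a. They are shown because hedgehog signalling ends in Gli factors that bind DNA, so the letters before these genes are the stretch in which a site would be looked for. Each is up to 250 bases before the RefSeq start, on the gene's own strand, from mouse build GRCm38.p6. Capitals mark GGGCGG or its reverse complement CCGCCC, the GC box that Sp-family factors bind.
Sema6d chr2:124089719-124089968, plus strand: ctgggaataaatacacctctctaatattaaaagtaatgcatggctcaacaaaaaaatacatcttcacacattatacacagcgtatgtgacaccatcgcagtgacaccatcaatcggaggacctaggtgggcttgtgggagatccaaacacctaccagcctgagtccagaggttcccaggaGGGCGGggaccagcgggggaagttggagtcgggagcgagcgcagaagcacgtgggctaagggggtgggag
Plxna3 chrX:74328816-74329065, plus strand: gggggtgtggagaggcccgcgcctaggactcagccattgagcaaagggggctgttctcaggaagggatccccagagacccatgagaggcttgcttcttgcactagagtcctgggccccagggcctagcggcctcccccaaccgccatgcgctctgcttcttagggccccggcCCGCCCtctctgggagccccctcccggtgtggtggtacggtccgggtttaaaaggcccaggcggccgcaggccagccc
Ephb2 chr4:136836013-136836262, minus strand: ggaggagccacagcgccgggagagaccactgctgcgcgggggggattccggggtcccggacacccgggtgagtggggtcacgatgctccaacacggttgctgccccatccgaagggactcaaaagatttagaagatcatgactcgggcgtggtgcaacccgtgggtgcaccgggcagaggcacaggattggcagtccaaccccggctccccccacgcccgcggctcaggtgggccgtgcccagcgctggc
Epha3 chr16:63864176-63864425, minus strand: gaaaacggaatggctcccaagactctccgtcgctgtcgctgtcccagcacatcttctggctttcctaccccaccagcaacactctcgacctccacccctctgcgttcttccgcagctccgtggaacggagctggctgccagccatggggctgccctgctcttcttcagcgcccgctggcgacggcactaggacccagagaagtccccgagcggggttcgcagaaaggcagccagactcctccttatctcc
Sema5a chr15:32244563-32244809, plus strand: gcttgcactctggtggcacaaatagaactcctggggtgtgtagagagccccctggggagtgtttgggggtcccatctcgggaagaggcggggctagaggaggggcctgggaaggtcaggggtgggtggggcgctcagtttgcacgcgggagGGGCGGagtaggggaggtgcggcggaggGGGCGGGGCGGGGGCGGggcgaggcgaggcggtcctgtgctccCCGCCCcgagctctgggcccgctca

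The Gli consensus GACCACCCA, searched on both strands, was in 0 of the 54 RefSeq windows of 250 bases that 41 guidance genes had and in 0.225% of the 32851 windows of all genes. At so low a share, 54 windows would be likely to hold no match, so the 0 sets these genes apart from no others. The GC box was in 72.2% of the guidance windows and in 32.7% of all windows. It is made of G and C only, and the shares were not adjusted for the GC content of the windows. Some genes had more than 1 window, so the difference was not tested. Among the sequences above the GC box stands 1 time in Sema6d and in Plxna3, 5 times (some overlapping) in Sema5a, and 0 times in Ephb2 and Epha3. The GC content of these windows ran from 52.4% in Sema6d to 71.7% in Sema5a. A match or its absence describes these letters in these windows only.

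Class 3 semaphorins, the secreted ligands, showed no common direction. Of 7 genes tested, 4 had log2 fold changes above 0 and 3 below, with 0 at an unadjusted p under 0.05. Sema3b, the most abundant of them per length, had 7003 and 10110 in cKO and 8535 and 5725 in cHet (log2 fold change 0.27, SE 0.34), and its groups overlapped. Sema3a, known for guarding tooth germs against early innervation, had 6063 and 4488 in cKO and 4143 and 4833 in cHet (0.22, SE 0.36; 95% confidence interval -0.60 to 1.04). That interval allows a difference of up to a log2 unit in the higher direction.

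Other secreted semaphorins had their lower values in cKO. Sema3f, a ligand of neuropilin-2, had 2524 and 3056 in cKO and 3419 and 6985 in cHet (log2 fold change -0.81, SE 0.46). Sema3c had 1458 and 1954 in cKO and 2940 and 2848 in cHet (-0.78, SE 0.52). Sema3d had 1087 and 2878 in cKO and 3181 and 2971 in cHet (-0.80, SE 0.60). For each of these 3 genes both cKO libraries lay below both cHet libraries in scaled counts, and in FPKM the groups overlapped. Their unadjusted limma p-values ran from 0.117 for Sema3f to 0.224 for Sema3d, whose log2 fold change was -0.095 without cKO_0 and -1.50 without cKO_1. The low genes Sema3e and Sema3g were set by single libraries: Sema3e had 341.5 and 567.4 in cKO and 2250 and 7.326 in cHet, and Sema3g 105.6 and 610.5 in cKO and 119.8 and 4.186 in cHet.

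Among the membrane-bound semaphorins Sema5a had the lowest unadjusted p. Sema5a, a transmembrane semaphorin with thrombospondin repeats (chromosome 15, 32244810 to 32696341, plus strand), had 5131 and 8580 in cKO and 10810 and 13150 in cHet. Both cKO libraries lay below both cHet libraries, in FPKM too (6.66 and 5.10 in cKO, 14.3 and 6.76 in cHet). The log2 fold change was -0.84 (SE 0.33, unadjusted limma p of 0.0349), and it was -0.47 without cKO_0. Its promoter, shown above, is the one with the most GC boxes.

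Sema6d (chromosome 2, 124089969 to 124667770, plus strand), a ligand of plexin-A1 in the heart and in immune cells, had the highest log2 fold change of the 47 genes, and 1 library set it. It had 2821 and 3210 in cKO and 2406 and 40.81 in cHet (log2 fold change 3.21, SE 1.68, unadjusted limma p of 0.0918). Without cHet_1 the log2 fold change was 0.32. In FPKM the groups overlapped, at 6.24 and 3.70 in cKO and 5.38 and 0.0431 in cHet. Sema4a and Sema4b had the same shape: 883.4 and 1759 in cKO against 941.7 and 78.49 in cHet for Sema4a, and 511.7 and 1113 in cKO against 652.6 and 59.65 in cHet for Sema4b. Their log2 fold changes of 2.17 and 1.90 were 0.40 and 0.21 without cHet_1.

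The more abundant membrane semaphorins had log2 fold changes near 0. Sema4c had 3150 and 3176 in cKO and 2665 and 4369 in cHet (log2 fold change -0.11). Sema4d, which osteoclasts use to hold back osteoblasts, had 4134 and 4466 in cKO and 4735 and 4542 in cHet (-0.11, SE 0.35; 95% confidence interval -0.91 to 0.69). Sema6a had 7717 and 5022 in cKO and 5021 and 7148 in cHet (0.06; with library factors recomputed by median of ratios or by trimmed mean of M values, TMM, it was -0.049 and -0.032). Sema7a, a glycolipid-anchored semaphorin, was near 0 in 1 library of each group, with 1.077 and 356.3 in cKO and 421.1 and 1.046 in cHet.

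Plexins, the receptors that semaphorins share, included 1 gene with an unadjusted p under 0.05. Plxna3, a receptor for class 3 semaphorins with neuropilin-2 (chromosome X, 74329066 to 74344689, plus strand), had 5344 and 5309 in cKO and 2922 and 1624 in cHet. The cKO libraries nearly coincided and both exceeded both cHet libraries, as they did in FPKM (10.8 and 9.96 in cKO, 5.78 and 3.05 in cHet). The log2 fold change was 1.29 (SE 0.45, unadjusted limma p of 0.0207), and it lay between 0.86 and 1.71 with 1 library left out.

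Of the other plexins, Plxna1 was the steadiest, with 10760 and 11200 in cKO and 9759 and 10490 in cHet (log2 fold change 0.12, SE 0.26). Its groups did not overlap in either table, but the difference was smaller than its error. Plxnb2, the most abundant plexin per length, had 18510 and 26100 in cKO and 19190 and 10550 in cHet (0.63, SE 0.34). Plxna2 had 8890 and 5433 in cKO and 7169 and 9450 in cHet (-0.24, SE 0.35). Plxnb1, the Sema4d receptor, had 3012 and 7432 in cKO and 3453 and 4992 in cHet (0.19, SE 0.49). The groups overlapped for Plxnb2, Plxna2 and Plxnb1, and likewise for Plxna4, Plxnc1 and Plxnd1, whose log2 fold changes ran from -0.65 for Plxnc1 to 0.64 for Plxnd1. In all, 5 of 8 plexins had values above 0 and 3 below, with a median of 0.15.

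The neuropilins, which hold class 3 semaphorins for plexins, did not separate the groups. Nrp2 had 14510 and 13330 in cKO and 12790 and 16730 in cHet (log2 fold change -0.07, SE 0.26; 95% confidence interval -0.67 to 0.53). Nrp1 had 2655 and 4517 in cKO and 1845 and 5794 in cHet (0.08, SE 0.60; -0.022 with median-of-ratios and -0.005 with TMM scaling). Nrp1 differed more within each group than between them.

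Slit3 had the lowest unadjusted p among the secreted ligands. Slit3, a Robo ligand made by osteoblasts and other mesenchyme (chromosome 11, 35121224 to 35708507, plus strand), had 34960 and 23130 in cKO and 16430 and 8747 in cHet. Both cKO libraries exceeded both cHet libraries, in FPKM as well (96.8 and 69.7 in cKO, 44.4 and 25.9 in cHet). The log2 fold change was 1.25 (SE 0.36, unadjusted limma p of 0.0079), a 2.37-fold higher level in cKO on that scale. Slit3 made up 8.72% and 7.98% of the summed FPKM of the 48 genes in cKO and 4.65% and 4.0% in cHet, so that both cKO shares exceeded both cHet shares. With 1 library left out its log2 fold change lay between 0.79 and 1.70. The adjusted limma p was 0.0287 without cHet_0 and 0.0385 without cKO_1, each on 1 residual degree of freedom, with the lone library assumed to vary like the other group. It was 1.0 without cHet_1 and without cKO_0, and lay between 0.876 and 1.0 over the 13 alternatives with all 4 libraries.

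The other Slits did not share the direction of Slit3. Slit2 had 3855 and 4177 in cKO and 6241 and 5245 in cHet (log2 fold change -0.51, SE 0.34), with both cKO libraries below both cHet libraries in scaled counts and with overlap in FPKM. Slit1 was listed at 1.077 and 85.1 in cKO and at 0 and 2.093 in cHet and was not tested. The Robo receptors had lower values: Robo1 had 6591 and 7637 in cKO and 9688 and 11050 in cHet (-0.54, SE 0.28, unadjusted limma p of 0.0886). Robo1 did not overlap between the groups in scaled counts and did overlap in FPKM. Robo2 had 6505 and 3653 in cKO and 6816 and 4911 in cHet (-0.25, SE 0.40), with overlap.

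Ntn1 and the receptor genes Unc5b and Unc5c had fold changes of opposite sign. Ntn1, a secreted laminin-related ligand (chromosome 11, 68209364 to 68400823, minus strand), had 11650 and 20100 in cKO and 9062 and 6813 in cHet. Both cKO libraries exceeded both cHet libraries, also in FPKM (30.6 and 48.8 in cKO, 23.2 and 16.7 in cHet). The log2 fold change was 0.96 (SE 0.34, unadjusted limma p of 0.0212), and it was 0.57 without cKO_1. Ntn4, a basement membrane netrin, had 411.6 and 1646 in cKO and 1163 and 1683 in cHet (-0.76, SE 0.96), with overlap.

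Unc5b, the Unc5 receptor of vessels, had 3039 and 4532 in cKO and 8220 and 5414 in cHet (log2 fold change -0.85, SE 0.39, unadjusted limma p of 0.0623). Unc5c, a repulsive netrin receptor (chromosome 3, 141465216 to 141834924, plus strand), had 161.6 and 144.1 in cKO and 953.9 and 3372 in cHet. For both genes the cKO libraries lay below the cHet libraries in scaled counts and in FPKM. The Unc5c log2 fold change was -3.53 (SE 1.33, unadjusted limma p of 0.0292), and it lay between -4.44 and -2.62 with 1 library left out. Its level was low in cKO, at 0.244 and 0.0856 FPKM, against 1.48 and 1.68 FPKM in cHet. An antisense transcript, Gm15688, overlaps exons of Unc5c, and no source used here says whether strand was used in counting.

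**Figure D3:**
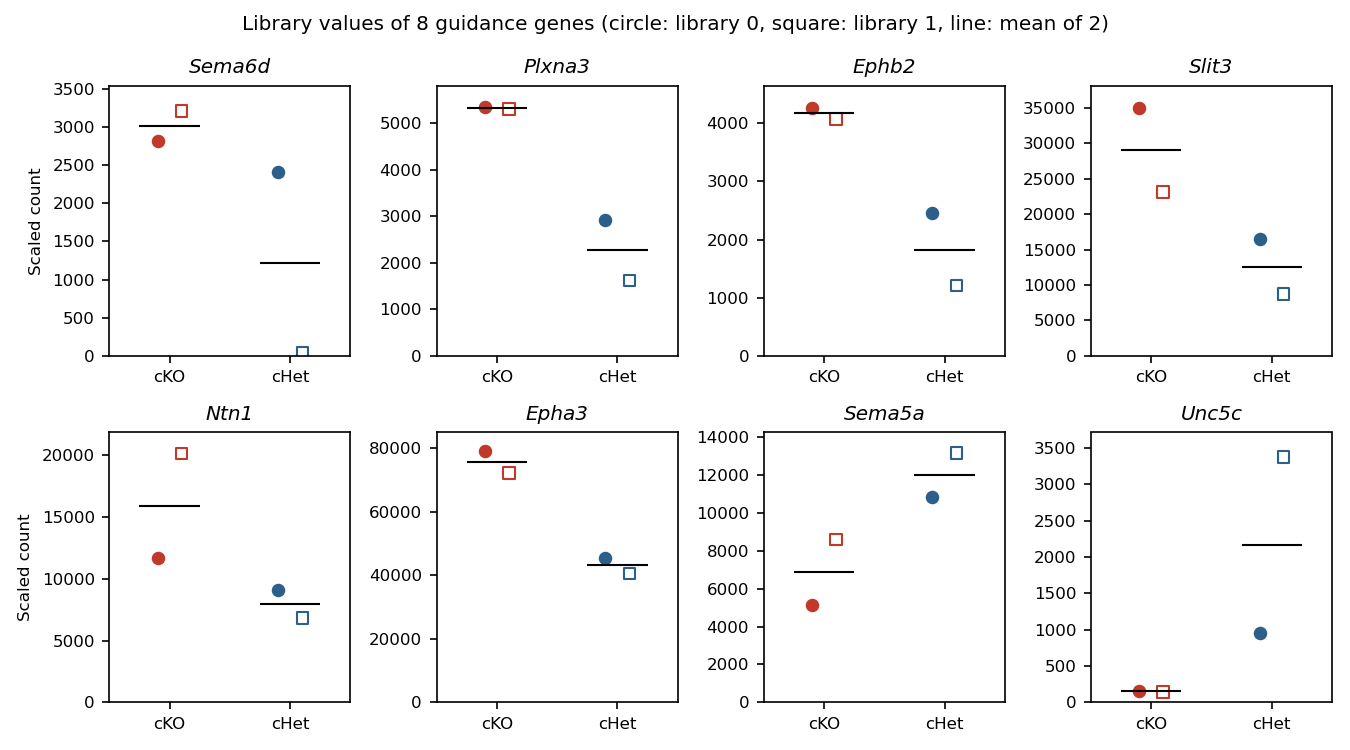
Scaled counts on linear axes from 0 for the 8 guidance genes with no overlap between groups and with a log2 fold change of at least 1 in size or an unadjusted limma p under 0.05, with cKO left and cHet right (circles library 0, squares library 1, lines the mean of 2 libraries). In Plxna3, Ephb2 and Epha3 the cKO libraries lie close together above both cHet libraries, and in Sema6d cHet_1 at 40.81 sets the difference.

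Ephrins, the membrane-held ligands, had small estimated differences between groups, with errors too wide to show that they were level. Of 6 tested, 3 had log2 fold changes above 0 and 3 below, between -0.43 and 0.44, with 0 at an unadjusted p under 0.05. Efnb1, an X-linked ephrin of craniofacial mesenchyme, had 13890 and 22840 in cKO and 17160 and 10700 in cHet (log2 fold change 0.40, SE 0.34). Efna1 had 3236 and 5124 in cKO and 5062 and 2430 in cHet (0.21, SE 0.49). Efna2 had 6290 and 4629 in cKO and 4412 and 3570 in cHet (0.44, SE 0.37). Of these, Efna2 was the one without overlap in scaled counts. Efnb2, the ligand of EphB4, had 6271 and 5997 in cKO and 7908 and 8637 in cHet (-0.43, SE 0.29), also without overlap in scaled counts and with overlap in FPKM. Efna4 and Efna5 overlapped, with log2 fold changes of -0.38 and -0.09.

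Epha3, the most abundant of the 48 genes, had the lowest unadjusted p of them all. Epha3, a receptor for ephrin-A ligands (chromosome 16, 63543534 to 63864175, minus strand), had 78990 and 72160 in cKO and 45610 and 40630 in cHet. Both cKO libraries exceeded both cHet libraries, with the smallest SE of the 8 genes singled out. The log2 fold change was 0.81 (SE 0.23; 95% confidence interval 0.29 to 1.33; unadjusted limma p of 0.00715), and it lay between 0.73 and 0.89 with 1 library left out. In FPKM the groups overlapped, at 277 and 119 in cKO and 164 and 59.4 in cHet, since cKO_1 lay below cHet_0 there. Within each library number the cKO value was the higher one in FPKM too, although no label pairs these libraries.

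The other EphA receptors did not lie higher in both cKO libraries. Epha4, a receptor for both ephrin classes, had 9758 and 5419 in cKO and 7943 and 2652 in cHet (log2 fold change 0.66, SE 0.55), and the value was -0.13 without cHet_1. Epha7 had 4124 and 3831 in cKO and 4907 and 4260 in cHet (-0.20, SE 0.36). Epha7 was lower in both cKO libraries, by less than its error. Epha2 had 873.7 and 1780 in cKO and 1945 and 296.2 in cHet (0.71, SE 1.13), with overlap.

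Among EphB receptors, Ephb2 stood apart from 3 genes with log2 fold changes near 0. Ephb2, a receptor for ephrin-B ligands (chromosome 4, 136647539 to 136835988, minus strand), had 4266 and 4073 in cKO and 2450 and 1207 in cHet. Both cKO libraries exceeded both cHet libraries, in FPKM too (12.7 and 12.0 in cKO, 7.12 and 3.53 in cHet). The log2 fold change was 1.28 (SE 0.52, unadjusted limma p of 0.0394), and it lay between 0.77 and 1.79 with 1 library left out. The groups of the other 3 EphB receptors overlapped. Ephb4, the ephrin-B2 receptor, had 15460 and 13140 in cKO and 12880 and 14010 in cHet (0.09, SE 0.25). Ephb3 had 12500 and 10760 in cKO and 11600 and 11210 in cHet (0.02, SE 0.26; 95% confidence interval -0.57 to 0.62). Ephb6, which lacks kinase activity, had 13300 and 8057 in cKO and 6552 and 14970 in cHet (0.06, SE 0.43, 95% confidence interval -0.935 to 1.062). These 3 small values turned below 0 with either of the other scalings tried, median-of-ratios or TMM, at -0.081 and -0.064 for Ephb3, -0.019 and -0.002 for Ephb4 and -0.041 and -0.024 for Ephb6. Exons of Ephb4 overlap those of Zan on the opposite strand.

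**Figure D4:**
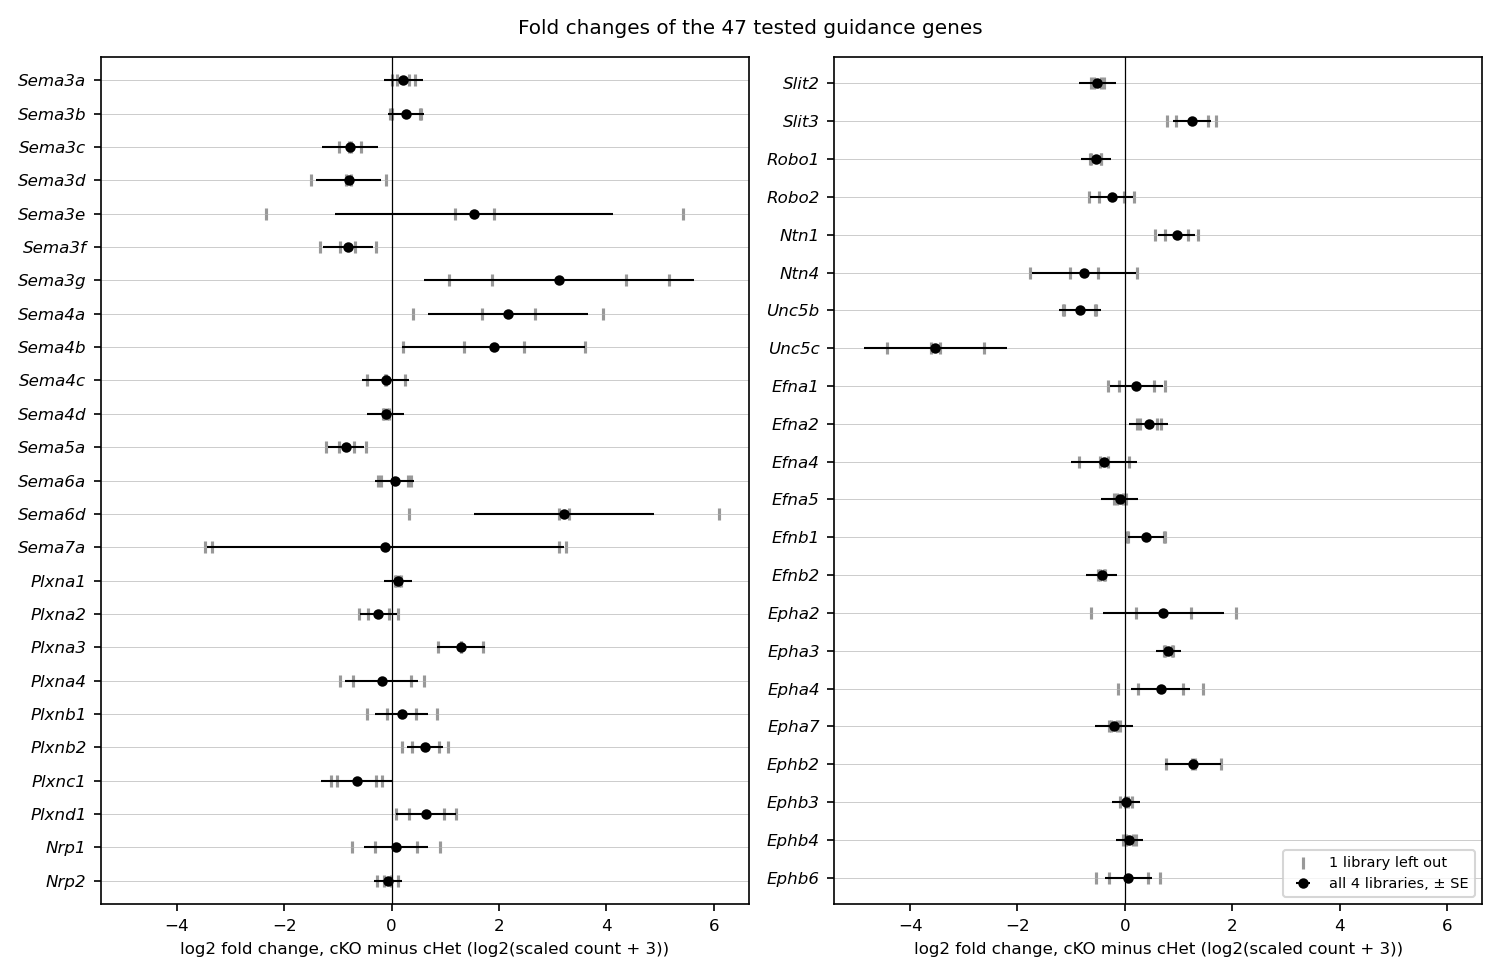
Log2 fold change, cKO minus cHet on log2(scaled count + 3), for the 47 tested guidance genes, with black points and bars for the estimate ± SE from all 4 libraries and grey ticks for the estimate with 1 library left out in turn. Slit3, Plxna3, Ntn1, Epha3 and Ephb2 lie above 0 and Unc5c, Sema5a and Robo1 below 0 with every tick on the same side, while ticks of Sema3e and Sema7a fall on both sides.

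Several of the lowest values came from library cHet_1. Its value was under 0.1 times the lowest of the other 3 libraries for 4 of the 47 genes, Sema3e, Sema3g, Sema4a and Sema6d. Over all genes that was so for 15.2% in cHet_1, against 1.62% in cKO_0, 2.07% in cKO_1 and 0.399% in cHet_0. The median size of the log2 difference between cKO_0 and cKO_1 over the 47 genes was 0.58 and that between cHet_0 and cHet_1 was 0.60. Between groups it ran from 0.41, for cKO_1 with cHet_0, to 0.81, for cKO_0 with cHet_1. The guidance genes therefore differed between libraries of 1 group about as much as between libraries of different groups. Without cHet_0 limma called 4 of the 47 genes (8.51%): Slit3, Sema4a and Sema6d higher and Unc5c lower. Over all genes 7.97% were called without cHet_0, 7.42% higher and 0.546% lower. Without cKO_1 it called Slit3 alone (2.13%), against 0.294% of all genes, 0.0699% higher and 0.224% lower. Without cKO_0 it called 0 of the 47, against 0.0839% of all genes, 0.049% higher and 0.035% lower, and without cHet_1 it called 0 of the 47 and 0.0% of all genes.

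Guidance genes outside the 48 had no common direction either. Of 30 further ligands and receptors 23 were tested, with 11 above 0 and 12 below and a median log2 fold change of -0.01. Without overlap in scaled counts were 21.7% of the 23, against 32.2% of all genes. At an unadjusted limma p under 0.05 there was 1 (4.35%), against 3.03% of all genes. That one was Unc5a, a netrin receptor known from neurons, with 218.7 and 517.4 in cKO and 2.429 and 2.093 in cHet (log2 fold change 6.01, SE 2.38, unadjusted limma p of 0.0355). Both cHet values lay under the filter value of 10, so Unc5a entered the test through the cKO libraries alone. Its log2 fold change was 6.70 with a pseudocount of 1 and 4.82 with a pseudocount of 10. Unc5a and Unc5c, of 1 receptor family, thus had their higher values in opposite groups. Ntn5, a netrin-like secreted protein, had 2386 and 2577 in cKO and 1336 and 721 in cHet (log2 fold change 1.33, SE 0.67). Ntn3 had 4565 and 5964 in cKO and 4622 and 1017 in cHet (1.27, SE 0.68), with overlap in scaled counts and a value of 0.175 without cHet_1. Sema5b had 769.2 and 316.6 in cKO and 47.77 and 51.28 in cHet (3.24, SE 1.99). Neo1, which encodes the netrin receptor neogenin, was named after its values were seen, as the further gene with the highest scaled counts, with 24670 and 23050 in cKO and 25170 and 35130 in cHet (-0.32, SE 0.25).

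The effectors of guidance signals, most but not all of them intracellular, were tested in full, 47 of 47. Of these, 20 were above 0 and 27 below, with a median of -0.15. At an unadjusted p under 0.05 there were 2 (4.26%), both lower in cKO, where 3.03% of all genes were, 1.49% lower. Pak1, a kinase that Rac and Cdc42 switch on, had 3543 and 3467 in cKO and 5186 and 8034 in cHet (log2 fold change -0.88, SE 0.37). Adam10, the protease that sheds ephrins, had 5255 and 6474 in cKO and 9391 and 9355 in cHet (-0.68, SE 0.29). Rasa1, a Ras-inactivating protein that Eph receptors recruit, had 6983 and 7540 in cKO and 10730 and 10550 in cHet (-0.55, SE 0.27), and Vasp, an actin regulator, 5984 and 6143 in cKO and 4503 and 2463 in cHet (0.86, SE 0.41). In scaled counts the groups did not overlap for any of Pak1, Adam10, Rasa1 and Vasp, and in FPKM those of Adam10 and Rasa1 did. Without overlap in scaled counts were 31.9% of the effectors and 32.2% of all genes, and 0 effectors passed the adjusted test.

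Markers of several cell types moved with the groups or with single libraries, and their part in the values above was not tested. Dental follicle markers were present: Pthlh, which encodes PTHrP, had 12270 and 8613 in cKO and 9253 and 15880 in cHet, and Scx alone was near 0 in a library, with 1.077 in cKO_0. Of these 12 markers 11 had log2 fold changes below 0 (median -1.05), and their summed FPKM was 3700 and 1440 in cKO and 4110 and 2090 in cHet. Guidance genes are also used by vessels, and 13 of 14 tested endothelial markers were above 0 (median 2.34, and 0.673 without cKO_1). Their summed FPKM was 53.2 and 173 in cKO and 39.6 and 63.0 in cHet. Pecam1 had 299.5 and 1278 in cKO and 0 and 5.233 in cHet, while Emcn was at 0 in cKO_0. Pecam1, Cldn5 and Sox17 reached the filter value of 10 in the cKO libraries only. The filter thus fixed the side of those genes in the count and median above. Guidance genes are likewise used by nerves, and 9 of 11 tested Schwann cell and neuronal markers were above 0 (median 2.26, but 0.146 without cHet_1 and 0.276 without cKO_1), with summed FPKM of 239 and 256 in cKO and 234 and 124 in cHet. Sox10 had 1.077 and 160 in cKO and 73.69 and 2.093 in cHet, and the neuronal tubulin Tubb3 had 1336 and 1441 in cKO and 4495 and 4048 in cHet.

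Epithelial transcripts were abundant in every library. The summed FPKM of 12 dental epithelium markers was 14700 and 38600 in cKO and 8160 and 18300 in cHet, with 6 above 0 and 6 below (median 0.01). Osteoblast and odontoblast markers summed to 8580 and 10400 FPKM in cKO and 13400 and 16200 FPKM in cHet, with 4 of 10 above 0 (median -0.59). For pericyte and smooth muscle markers 8 of 8 tested were above 0 (median 0.47), with summed FPKM of 612 and 551 in cKO and 568 and 395 in cHet. Leukocyte and osteoclast markers summed to 126 and 257 FPKM in cKO and 152 and 247 in cHet, with 4 of 11 above 0 (median -0.28). Ptprc had 62.49 and 76.03 in cKO and 0.81 and 0 in cHet. Adgre1 went the other way, with 0 and 2.269 in cKO and 36.44 and 203 in cHet. Ptprc and Adgre1 each reached the filter value of 10 in 1 group only, which fixed their side. Ocstamp was at 0 in all 4 libraries.

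The overlap of Epha3 and of several others in FPKM went with a difference between the 2 deposited tables. FPKM divided by the scaled count, set to 1 at cHet_0 and at the median gene, was between 0.96 and 1.04 in cKO_0 for 41 guidance genes. It ran from 0.46 to 1.93 in cKO_1 and from 0.40 to 2.17 in cHet_1. A gene that was low by this ratio in cKO_1 was low in cHet_1 as well (Pearson 0.99, Spearman 0.99 across the 41 genes, which share their libraries). The ratio also followed the GC content of the longest annotated transcript (Pearson 0.94 in cKO_1, 0.94 in cHet_1, and 0.95 in cKO_0 within its narrow range). Over 9041 genes these correlations were 0.86 in cKO_1, 0.868 in cHet_1 and 0.624 in cKO_0, so the pattern was not particular to guidance genes. GC-poor Sema3a (40.8% GC) had 0.51 in cKO_1 and 0.44 in cHet_1, Epha3 (41.9% GC) had 0.75 and 0.72 there, and Slit3 (56.8% GC) had 1.83 and 1.93. These correlations describe genes within libraries, and genes are not independent replicates. How the FPKM values were made is not given beyond the tools named, and a correction for sequence composition was not tested.

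**Figure D5:**
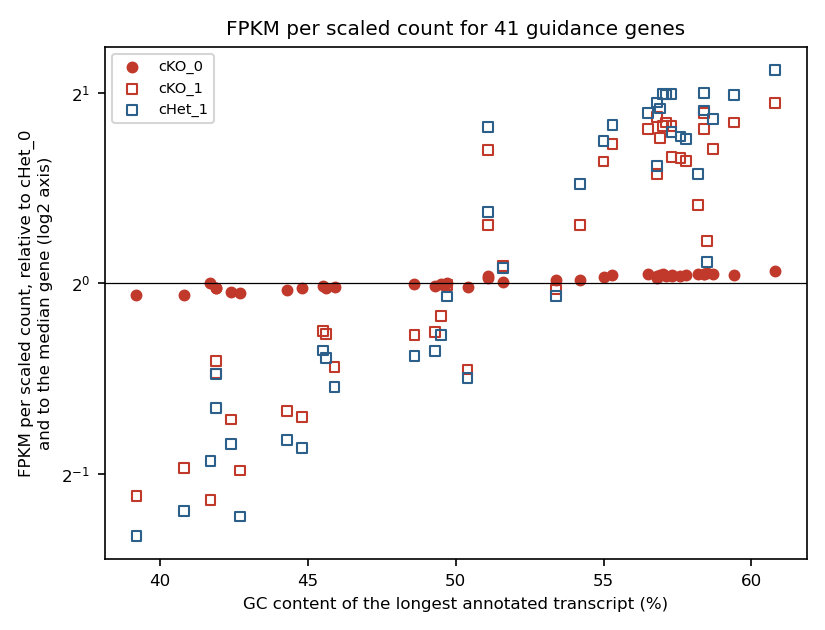
FPKM divided by the scaled count (log2 axis), relative to cHet_0 and to the median gene, against the GC content of the longest annotated transcript for 41 guidance genes, with 1 symbol for each of the other libraries (cKO filled and open red, cHet_1 open blue). The cKO_0 points stay between 0.96 and 1.04, while the cKO_1 and cHet_1 points rise together with GC content, up to 1.93 and 2.17.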

How the data were processed

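RNA from sorted cells was isolated with a PicoPure kit, amplified with SMART-Seq v4 and made into Nextera XT libraries, per the labels' protocols. The submitters' processing notes name build mm10 and, without saying what each did, DESeq2, HTSeq, Cuffdiff, Cufflinks, Bowtie2 (2.2.1), TopHat2 (2.0.13) and FastQC. The deposited scaled counts are held as a signal unit, being the authors' gene counts divided by a factor for each library whose origin is not given in these sources. The authors' deposited FPKM values are scaled to library size and transcript length and served as an alternative. Columns count libraries from 0 and sample titles from 1, so each column was given a group and not a sample. In 4 tables, 16 columns of per-sample values carry other names and were left out.

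The test planned for raw counts was replaced, since the usable columns hold none. A model with group as the only term was fitted by limma (3.58.1, R 4.3.3), with a trend of variance on abundance, to log2(scaled count + 3) of the 14297 genes that reached 10 in 2 or more of the 4 libraries. P-values are two-sided and were adjusted over all genes tested. The median standard error was 0.74 log2 units. Many low values were multiples of 1 step in a library, such as 1.046, 2.093 and 3.14 in cHet_1. Not all were: in cKO_1 Epha10 had 1.135 and Ntng2 had 2.342. Whole reads were not recovered from these steps, and depth in reads was not worked out. The fit was also run on simulated data in which all libraries shared 1 spread. No simulated library stood apart as cHet_1 does here, so that run does not show how the fit behaves with such a library.

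The 48 genes and the further lists were chosen with earlier results of these data known. Values in every library were given for tested members without overlap between groups and with a log2 fold change of at least 1 in size or an unadjusted p under 0.05, and for the 3 members of each family list with the highest mean FPKM. The further lists had up to 4 genes with the lowest p named; other genes were added after their values were seen. Scaling, pseudocount, filter, unit, library weights, trend, a block for library number (also in FPKM, chosen after seeing the data) and leaving out each library were varied. Symbols matched except Draxin and Adgre1, found by synonym. Gene coordinates and exons are from GENCODE vM21, and promoters from RefSeq on GRCm38.p6, with a window for 41 of the 48 genes.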

Additional observations from a re-analysis of the deposited data

How the results depend on the processing

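With all 4 libraries, 13 alternatives were run, and 0 guidance genes were called under each of them. The genes named by the rules above, with the hedgehog readouts, were 43. Of their fold changes, 544 kept their direction and 10 turned. These were Sema6a (-0.049), Nrp1 (-0.022), Ephb3 (-0.081), Ephb4 (-0.019) and Ephb6 (-0.041) with median-of-ratios scaling, and the same 5 genes with TMM scaling (-0.032, -0.005, -0.064, -0.002 and -0.024). Other genes given above were not in that count, and among them Efna5 (-0.093) turned to 0.022 with log2(FPKM + 1). Median-of-ratios and TMM scaling moved the median of all genes to 0.02 and 0.04, against 0.12. They moved that of the guidance genes to -0.04 and -0.02. Over all genes 7 were called with log2(FPKM + 1), 2 with log2(FPKM + 0.1), 1 in the FPKM fit with a block and 0 in the other settings with all libraries. Guidance genes at an unadjusted p under 0.05 numbered 7, but 1 with log2(FPKM + 1), 1 with log2(FPKM + 0.1), 2 with log2(FPKM + 1) and no filter, and 1 without the mean-variance trend; the cause was not tested. With 1 library left out the counts ran from 0 to 1139 for all genes called, 0 to 4 for guidance genes called and 3 to 16 at an unadjusted p under 0.05, and the median of the guidance genes from -0.01 to 0.15. Fold changes that turned in that way ran from -0.25 to 0.37 for Sema6a, -0.74 to 0.91 for Nrp1, -0.53 to 0.66 for Ephb6, -0.021 to 0.56 for Sema3b, -0.47 to 0.25 for Sema4c, -0.27 to 0.12 for Nrp2, -0.31 to 0.74 for Efna1, -0.13 to 1.45 for Epha4, -0.084 to 0.13 for Ephb3, -0.031 to 0.20 for Ephb4, -1.76 to 0.24 for Ntn4, -0.60 to 0.11 for Plxna2 and -0.66 to 0.17 for Robo2. Of the single-gene values with 1 library left out, 147 kept their side, 18 turned and 7 passed the threshold, among them Slit3, Sema6d and Unc5c. Those counts cover the 43 genes only. Genes outside them turned as well with 1 library left out, among them Plxnb1 (-0.46 to 0.84), Epha2 (-0.64 to 2.06) and Efna4 (-0.85 to 0.08). No label says that library numbers pair the samples. The differences between libraries 0 and 1 in the 2 groups correlated across genes at 0.05 in scaled counts and at 0.277 in FPKM. With the library number as a replicate block 0 genes were called, 6 guidance genes had an unadjusted p under 0.05 and the median stayed at 0.06. With this replicate block in log2(FPKM + 1), chosen after seeing the data, 1 gene was called over all genes and 0 guidance genes, 2 guidance genes had an unadjusted p under 0.05 and their median was 0.058. Count-based tests were not run, since the scaled counts are not whole reads and whole reads were not recovered from them. Slit1 and Sema7a had a scaled count under 3 in some library; what depth limits was not tested.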
